A study of Mus musculus with 4 samples.

Results

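Mac-Prolif is the cluster of dividing macrophages in the authors' annotation of a B16 mouse melanoma. It was described from single-cell RNA sequencing of 1 subcutaneous tumour sample, pooled from 3 C57BL/6J mice and run on the 10x Genomics platform. Its members are all cells that the deposited B16 cell table names Mac-Prolif, 322 of the 6773 cells in that table. The whole series, as used here, holds 30022 cells of 3 RNA libraries. Mac-Prolif was set against 3 non-dividing macrophage clusters of the same library, which were Mac-1 (724 cells), Mac-2 (350 cells) and Immature Mac (900 cells). A further macrophage cluster of that library, Mac-Lyve1 (53 cells), was left out of the comparison. Non-dividing describes each cluster as a whole, and Mac-1 held cells with many cell cycle UMIs, described below. Mac-Prolif and the 3 clusters share tumour, strain, pooling and library, and none was treated with an agent that the labels name. For values side by side, 331 dividing macrophages of an LLC lung carcinoma library were used. That library was also a pool from 3 mice with subcutaneous tumours, here of the genotype F11r fl/fl LysM-Cre-. The labels do not say how tissue was dissociated or whether cells were sorted. The C57BL/6J library of LLC made with antibody tags was not used here.

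A dividing cell copies its DNA in S phase and parts the copies in M phase. Genes of DNA licensing, replication and nucleotide supply are switched on around the start of S phase, largely by E2F factors. Genes of the centromere, the spindle and the mitotic kinases follow in G2 and M phase, many of them through the MuvB complex and FOXM1. Tumour macrophages mostly derive from blood monocytes, and a part of them divides within the tumour.

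B16 is 1 library, so no group of samples could be compared and no test was made. Cells of 1 library are not replicates, and the cluster was drawn on the genes of these same cells, so its difference from the others is a description. Levels are unique molecular identifier (UMI) counts summed over the cells of a cluster, scaled to the total of that cluster (CPM). Ratios carry exact 95% intervals, which cover counting error only and not the spread between tumours or cells. Levels of different genes were not compared with each other. A gene was measured when Mac-Prolif and the 3 pooled clusters together held at least 20 UMIs of it. Higher or lower, as a call, means a ratio of at least 1.5-fold in the named direction, with no p-value behind it.

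Mac-Prolif made up 4.75% of the B16 cells (exact Clopper-Pearson 95% interval 4.26 to 5.29). It made up 14.0% (12.6 to 15.5) of the 2296 cells in Mac-Prolif, Mac-1, Mac-2 and Immature Mac, a total without Mac-Lyve1. A Mac-Prolif cell held a median of 20937 UMIs, against 16168 in Mac-1, 11158 in Mac-2 and 8846 in Immature Mac. The median number of genes was 4422 per Mac-Prolif cell, against 3668, 2738 and 2485 in those clusters. The deepest Mac-Prolif cell held 78548 UMIs, against 53321 for the deepest cell of the other 3 clusters. The mitochondrial share of UMIs was 3.46% at the median in Mac-Prolif and lay between 2.56% and 3.64% in the other 3 clusters. CPM values do not hold this difference in RNA per cell. Counted as UMIs per cell, the median log2 ratio of all measured genes was 0.90, against 0.10 in CPM, and 8577 genes outside the cell cycle lists were higher in Mac-Prolif. Changes below are relative to the total of each cluster.

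Some Mac-Prolif cells carried another name in the authors' joint annotation of the B16 and LLC libraries. That table named 288 of the 322 cells TAM-3, 8 cells Prolif TAM, 25 cells Prolif CD8 T cells and 1 cell cDC1. The 25 cells held both macrophage and T cell RNA. Their 8 T cell markers summed to 2967 CPM, against 153 CPM in the 288 cells named TAM-3, while C1qa stood at 2845 and 5343 CPM in the same order of cells. They were deep, with a median of 28672 UMIs per cell against 19714 in the 288. A score built from simulated doublets put 24 of the 25 among the 6% of B16 cells with the highest values. Of all 322 Mac-Prolif cells, 49 (15.2%) were in that top 6%, against 68 of 724 Mac-1 cells (9.39%), 17 of 350 Mac-2 cells (4.86%) and 85 of 900 Immature Mac cells (9.44%). The cells were kept, and counts without them stand beside the main counts of higher and lower genes. Of the B16 barcodes in the joint table, 29 of 6870 also occurred in LLC, and 1 of these was a Mac-Prolif barcode.

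The markers of the label are given as a description, since the cluster was drawn on the genes of these same cells. Mki67, a nuclear protein of cycling cells, was at 414 CPM in Mac-Prolif, against 34.8 in Mac-1, 27.9 in Mac-2 and 5.41 in Immature Mac. After each cell was thinned to 5000 UMIs, 80.3% of Mac-Prolif cells held a Mki67 UMI, against 12.8%, 8.55% and 1.99% in those clusters. Unthinned, the shares were 95.03% in Mac-Prolif, against 28.9%, 16.9% and 4.11%. Top2a, the topoisomerase that untangles replicated DNA, was at 471 CPM in Mac-Prolif, against 40.7, 22.2 and 12.7 CPM. C1qa, a chain of the complement protein C1q and a macrophage marker, was at 4979 CPM in Mac-Prolif, against 5855, 3528 and 1294 CPM. A C1qa UMI was found in 99.4% of thinned Mac-Prolif cells, against 98.8%, 98.4% and 53.0% in the 3 clusters. Naive T cells, which should lack C1qa and do not divide, serve as background: 19.1% of them held a C1qa UMI after thinning and 3.68% a Mki67 UMI. The thinned Mki67 share of Immature Mac lay below that background. Naive T cells were shallow, with a median of 3677 UMIs, and only 136 of 711 could be thinned. For the same reason 8 Mac-Prolif, 36 Mac-1, 46 Mac-2 and 95 Immature Mac cells were left out of the thinned shares.

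The 12 macrophage markers together stood at 21602 CPM in Mac-Prolif, against 29576 in Mac-1, 18961 in Mac-2 and 15724 in Immature Mac, and none was at 0. Monocyte markers summed to 212 CPM in Mac-Prolif, against 221, 163 and 3135 CPM. T cell markers summed to 466 CPM in Mac-Prolif, against 310, 184 and 335 CPM, and 6 of 8 were higher than in the pooled clusters. In the 288 cells named TAM-3 they summed to 153 CPM. Markers of the dendritic cell type cDC1 summed to 345 CPM in Mac-Prolif, against 294, 216 and 47.6 CPM. Markers of the dendritic cell types pDC and cDC2 summed to 431 and 368 CPM in Mac-Prolif, against 532 and 391 CPM in the pooled clusters. Most of this was Bst2 for pDC (421 CPM) and Sirpa for cDC2 (342 CPM). Platelet and neutrophil markers summed to 369 and 83.5 CPM in Mac-Prolif, against 554 and 128 CPM in the pooled clusters. Markers of B cells, plasma cells, NK cells, endothelium and the tumour's own melanocytic lineage each summed to 70.8 CPM or less in Mac-Prolif. Iglv1 of plasma cells was at 0. None of the 4 fibroblast markers was in the table.

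**Figure D1:**
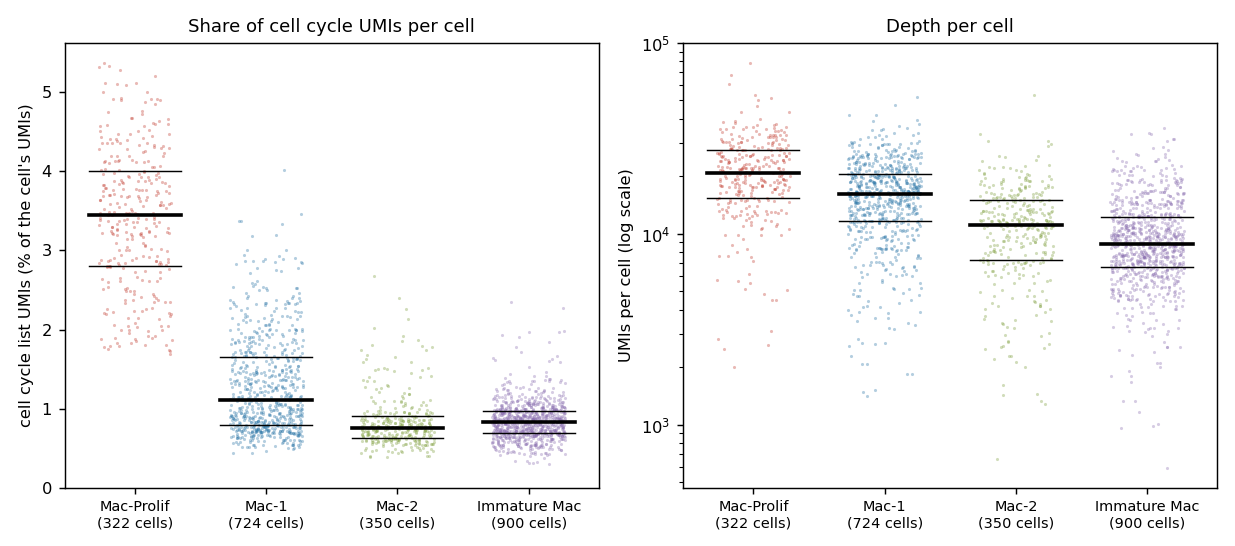
Share of UMIs from the cell cycle lists (left, % of the cell's UMIs) and UMIs per cell (right, log scale) for every cell of Mac-Prolif, Mac-1, Mac-2 and Immature Mac. Thick lines are medians and thin lines quartiles over cells: the Mac-Prolif median share is 3.45%, and the upper tail of Mac-1 reaches into the Mac-Prolif range.

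Cell cycle genes were taken from 11 lists and all others were reported apart. Of 310 measured cell cycle genes, 274 (88.4%) were higher in Mac-Prolif than in the 3 clusters pooled, and 1 (0.323%) was lower. That description states what the cluster is and supports nothing further. Without the 25 cells named Prolif CD8 T cells, 272 were higher and 2 lower. The median ratio over the 310 genes was 3.65-fold, against 1.07-fold over all 11622 measured genes. The lists supplied 3.43% of all Mac-Prolif UMIs, against 1.10% in the pooled clusters. Per cell, their share ran from 1.69% to 5.37% in Mac-Prolif, with a median of 3.45%. It had a median of 1.11% in Mac-1, 0.76% in Mac-2 and 0.83% in Immature Mac.

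Genes of mitosis stood furthest apart. All 35 measured centromere and kinetochore genes, 25 of 26 mitotic kinase and APC/C genes and 51 of 55 spindle and microtubule genes were higher in Mac-Prolif. Their median log2 ratios were 3.23, 3.76 and 4.001. Cenpf, which coats the outer kinetochore, was at 193 CPM in Mac-Prolif, against 5.64 in Mac-1, 5.18 in Mac-2 and 2.54 in Immature Mac. Its pooled ratio was 43.5 (35.8 to 53.2). The mitotic kinase Plk1 was at 72.9 CPM in Mac-Prolif, against 1.43, 2.22 and 1.10 CPM. Nusap1, which bundles spindle microtubules, was at 109 CPM in Mac-Prolif, against 2.19, 4.69 and 1.21 CPM. The smallest ratio of Nusap1 over any of the 3 clusters was 23.2 (over Mac-2) and that of Plk1 was 32.8 (also over Mac-2).

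The other mitotic genes named by rank showed the same step. Hmmr, a spindle pole protein, was at 123 CPM in Mac-Prolif, against 5.30, 4.19 and 0.44 CPM. Prc1, which cross-links microtubules of the midzone, was at 165 CPM in Mac-Prolif, against 6.73, 5.92 and 3.20 CPM. Tpx2, an activator of the kinase Aurora A, was at 170 CPM in Mac-Prolif, against 9.68, 8.88 and 4.97 CPM. The smallest ratio among these 3 genes was 17.6, for Tpx2 over Mac-1. Cenpe, a kinetochore motor, was at 154 CPM in Mac-Prolif, against 8.84, 7.89 and 2.54 CPM. Cdc20, which directs the anaphase-promoting complex to its targets, was at 109 CPM in Mac-Prolif, against 5.05, 4.19 and 2.65 CPM. Kif20a, Kif22 and Ckap2l, also spindle genes, had pooled ratios of 29.2, 24.8 and 28.1. The lowest members of the spindle list included Kif2a (1.16-fold) and Tubb2a (1.27-fold), which did not pass 1.5-fold. The tubulin Tuba1a was at 31.8 CPM in Mac-Prolif, against 47.2 CPM in the pooled clusters. Tubulin genes are close copies of each other, and how reads were shared among them is uncertain.

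Chromosome structure genes followed. Cohesin and condensin genes were higher in 14 of 16 cases, with a median log2 ratio of 2.02. Esco2, which locks cohesin onto sister chromatids, was at 45.4 CPM in Mac-Prolif, against 1.12 CPM in the pooled clusters. Pttg1, the securin that guards separase, was at 46.3 CPM in Mac-Prolif and 42.8 CPM in the pooled clusters. Histone and chromatin genes were higher in 32 of 34 cases, with a median of 1.84. The linker histone gene Hist1h1b was at 425 CPM in Mac-Prolif, against 16.3 in Mac-1, 15.5 in Mac-2 and 14.0 in Immature Mac. Hist1h2ap was at 99.1 CPM in Mac-Prolif, against 3.79, 3.21 and 2.76 CPM. Hist1h2bc was at 45.9 CPM in Mac-Prolif and 48.1 CPM in the pooled clusters. Histone genes come in near-identical copies, and most of their transcripts carry no poly(A) tail, so their counts are uncertain.

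Genes of the start of S phase were close to the level of Mac-1. Against the pooled clusters, 16 of 20 replication licensing genes were higher, with a median log2 ratio of 1.05. Against Mac-1 alone, only 8 of 20 were higher and the median was 0.42, whereas it was 2.14 against Mac-2 and 2.23 against Immature Mac. The MCM genes encode the helicase that is loaded onto DNA before replication. Mcm3 was at 115 CPM in Mac-Prolif, against 111 in Mac-1, 24.2 in Mac-2 and 25.3 in Immature Mac. Mcm6 was at 91.6 CPM in Mac-Prolif, against 100.4, 32.5 and 20.5 CPM. Mcm2 was at 44.3 CPM in Mac-Prolif, against 54.1, 13.3 and 11.7 CPM. Over Mac-1 the ratio of Mcm2 was 0.82 (0.713 to 0.938), while the intervals of Mcm4 (0.819 to 1.08) and Mcm6 (0.827 to 1.004) included 1, and none of the 3 passed 1.5-fold.

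Mcm5 was at 83.7 CPM in Mac-Prolif and 73.2 CPM in Mac-1, and Mcm7 was at 80.0 and 52.8 CPM in the same order. Mcm10, which acts as the fork starts, was at 19.5 CPM in Mac-Prolif and 9.68 CPM in Mac-1. Of the loading factors, Cdc6 was at 10.1 CPM in Mac-Prolif, against 13.1 in Mac-1, 3.21 in Mac-2 and 2.54 in Immature Mac. Cdt1 was at 40.2 CPM in Mac-Prolif, against 46.0, 23.9 and 21.3 CPM. Dbf4, the partner of the kinase that fires origins, had the highest pooled ratio of the licensing genes (5.41), at 74.2 CPM in Mac-Prolif and 17.3 CPM in Mac-1. Ung, which removes uracil from DNA, was at 8.49 CPM in Mac-Prolif, against 20.3, 3.70 and 3.75 CPM. Ung therefore lay at 0.42 of the Mac-1 level and above both other clusters.

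Of 33 replication fork and polymerase genes, 30 were higher than in the pooled clusters, and 14 were higher than in Mac-1. Pclaf, which binds the sliding clamp PCNA, was at 468 CPM in Mac-Prolif and 42.3 CPM in the pooled clusters. Asf1b, a histone chaperone, was at 94.1 and 10.2 CPM in the same order, and Clspn of the replication checkpoint at 60.3 and 10.7 CPM. Of 22 nucleotide synthesis genes, 16 were higher than in the pooled clusters and 10 higher than in Mac-1. Rrm2, a subunit of ribonucleotide reductase, was at 129 CPM in Mac-Prolif and 26.7 CPM in Mac-1. Nme1 was at 323 CPM in Mac-Prolif and 284 CPM in the pooled clusters. Of 34 DNA repair and checkpoint genes, 29 were higher than in the pooled clusters, with Fancd2 of the crosslink repair pathway at 9.95-fold.

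**Figure D2:**
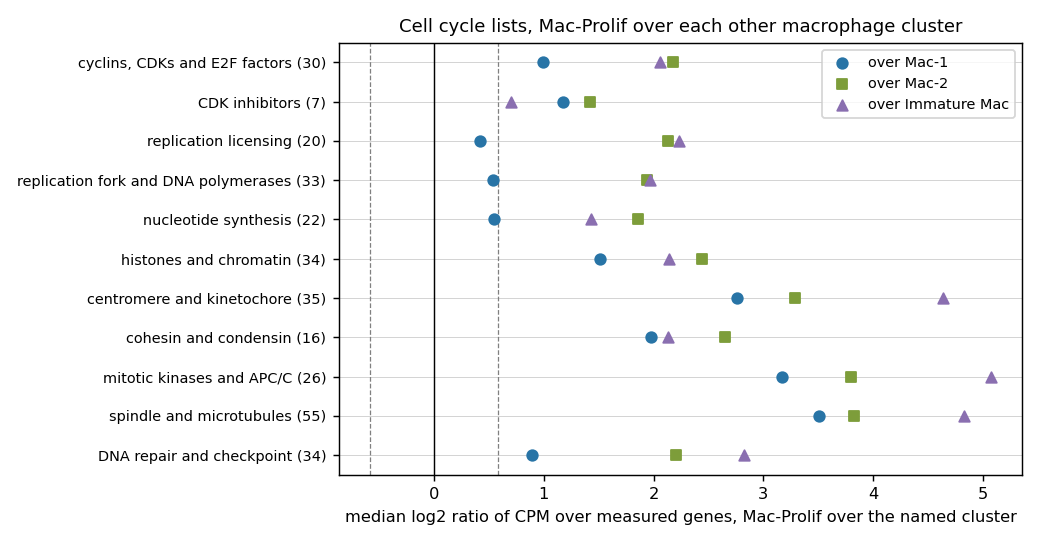
Median log2 ratio of CPM over the measured genes of each cell cycle list (number in brackets), for Mac-Prolif over Mac-1, over Mac-2 and over Immature Mac. Dashed lines mark 1.5-fold in either direction: licensing, fork and nucleotide genes lie within it over Mac-1 (0.42 to 0.55), while spindle genes lie at 3.51.

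Cyclins divided in the same way. The A and B cyclins stood far apart, with Ccna2 at 136 CPM in Mac-Prolif, against 6.99 in Mac-1, 3.95 in Mac-2 and 2.32 in Immature Mac. Ccnb1 was at 121 CPM in Mac-Prolif, against 7.07, 2.96 and 1.99 CPM. Ccnb2 was at 144 CPM in Mac-Prolif, against 39.4, 19.5 and 5.63 CPM, and Ccnf, an F-box protein of G2 phase, had a pooled ratio of 12.4. The E cyclins Ccne1 and Ccne2 were 3.66-fold and 3.16-fold higher than in the pooled clusters, and 2.11-fold and 1.89-fold higher than in Mac-1. D cyclins, which respond to growth factors in G1 phase, did not pass 1.5-fold over the pooled clusters. Over Mac-2 alone Ccnd1, Ccnd2 and Ccnd3 were 2.11-fold, 1.62-fold and 2.12-fold higher, and Ccnd1 was 1.93-fold higher over Immature Mac. Ccnd1 was at 207 CPM in Mac-Prolif, against 238, 97.9 and 107 CPM. Ccnd2 was at 93.1 CPM in Mac-Prolif and 94.1 CPM in the pooled clusters, and Ccnd3 at 53.9 and 54.6 CPM in that order.

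Inhibitors of cyclin-dependent kinases went both ways. Cdkn1a, the p53 target p21, was the single cell cycle gene lower than in the pooled clusters. It was at 109 CPM in Mac-Prolif, against 87.5 in Mac-1, 297 in Mac-2 and 471 in Immature Mac, so it was above Mac-1 and below the other clusters. Cdkn2c and Cdkn2d, of the INK4 family that blocks CDK4 and CDK6, were 6.60-fold (5.57 to 7.85) and 2.67-fold (2.39 to 2.97) higher. Cdkn3, a phosphatase that acts on CDK2, was at 89.2 CPM in Mac-Prolif and 9.72 CPM in the pooled clusters. Cdkn2a was at 5.52 CPM in Mac-Prolif and 1.48 CPM in the pooled clusters. Cdkn1b, which encodes p27, was at 54.6 CPM in Mac-Prolif and 54.9 CPM in the pooled clusters. Cdkn1c was at 2.12 and 1.44 CPM in that order.

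The members differed in their place in the cycle. UMIs of the licensing, fork and nucleotide lists were summed per cell as S phase UMIs, and those of the centromere, cohesin, mitotic kinase and spindle lists as G2 and M phase UMIs. S phase UMIs were 0.37% of a Mac-Prolif cell at the median (quartiles 0.25 and 0.75), against 0.20% in Mac-1, 0.11% in Mac-2 and 0.12% in Immature Mac. G2 and M phase UMIs were 1.51% of a Mac-Prolif cell (1.16 and 1.88), against 0.40%, 0.29% and 0.30%. These lists also hold genes that non-dividing cells use, such as tubulins.

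Mac-1 held cells with a high S phase share. Of its 724 cells, 122 (16.9%) had a total share of cell cycle UMIs at or above the 5th percentile of Mac-Prolif, against 6 of 350 Mac-2 cells and 7 of 900 Immature Mac cells. In these 122 cells the median S phase share was 0.67%, above the 0.37% of Mac-Prolif, and the median G2 and M phase share was 0.70%, below its 1.51% and above the 0.36% of the other 602 Mac-1 cells. Of the 122 cells, 38 had a G2 and M phase share at or above the 5th percentile of Mac-Prolif. Mki67 was at 414 CPM in Mac-Prolif, 104 CPM in these cells and 17.9 CPM in the other Mac-1 cells. Since the 122 cells were picked by their cell cycle UMIs, their levels against the other Mac-1 cells are descriptive. Mcm3 was at 115 CPM in Mac-Prolif and 225 CPM in these Mac-1 cells. Cdc6 was at 10.1 and 41.3 CPM in the same order, and Ung at 8.49 and 53.4 CPM. Plk1 was at 72.9 CPM in Mac-Prolif and 2.15 CPM in these Mac-1 cells, and Hist1h1b at 425 and 56.4 CPM. These Mac-1 cells were thus above Mac-Prolif as a whole in Mcm3, Cdc6 and the repair gene Ung. They were below it in the mitotic and histone genes named. In the 107 Mac-Prolif cells that lean most to S phase, parted below, Mcm3 was at 210 CPM and Mcm5 at 173 CPM. The 122 Mac-1 cells held 225 and 190 CPM of these genes. Rrm2 was at 293 and 96.4 CPM in the same order of cells, and Ccne1 at 74.7 and 37.5 CPM. Both sets were picked by cell cycle UMIs, so these values are descriptive. Cells in the Mac-Prolif range of total cell cycle share were then taken out of the 3 clusters, a setting chosen after seeing the data. Of the 310 cell cycle genes, 288 were then higher in Mac-Prolif.

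**Figure D3:**
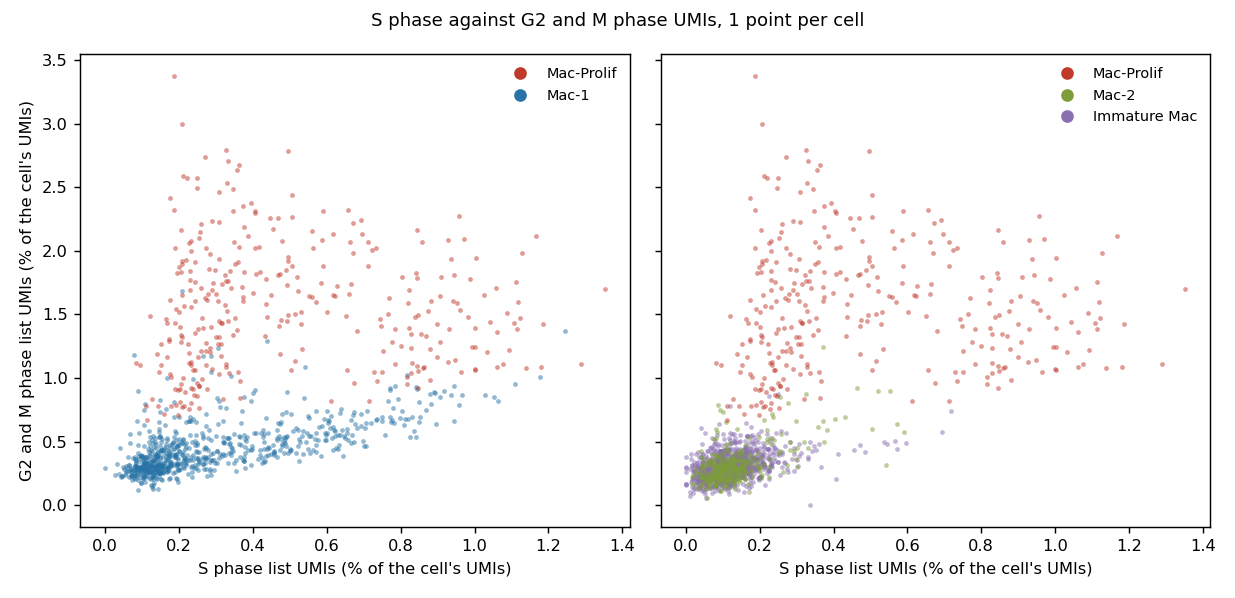
S phase UMIs (x axis) against G2 and M phase UMIs (y axis), both as % of a cell's UMIs, with 1 point per cell, for Mac-Prolif and Mac-1 (left) and for Mac-Prolif, Mac-2 and Immature Mac (right). Mac-1 runs out along the S phase axis beneath the Mac-Prolif cells, and its median G2 and M phase share of 0.40% compares with 1.51% in Mac-Prolif.

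To show the spread within the cluster, the 322 cells were ranked by S phase UMIs as a share of S, G2 and M phase UMIs and parted into 3 ranges of 107, 108 and 107 cells. These are ranges of a score and not cell types, and 62 and 28 cells lay within 2 points of the lower and upper border. The share had medians of 12.2% in the mitosis-leaning range, 20.6% in the middle range and 38.3% in the S-leaning range. Median UMIs per cell were 19153, 20099 and 23750 in that order. Since the S and mitotic lists made the ranking, their levels are descriptive. Cdc20 was at 207, 99.9 and 28.03 CPM across the ranges, and Ccnb1 at 200.01, 113 and 57.3 CPM. Ccne1 ran the other way at 4.87, 7.26 and 74.7 CPM, and Rrm2 at 30.1, 51.2 and 293 CPM. Mki67 was nearly level, at 400.0, 408 and 432 CPM.

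Macrophage genes had no part in the ranking. C1qa was at 5678, 4643 and 4657 CPM, and Csf1r, the receptor for the macrophage growth factor CSF1, at 241, 241 and 247 CPM. Of 8990 genes outside the cell cycle lists with enough UMIs in the outer ranges, 931 (10.4%) were higher in the S-leaning than in the mitosis-leaning range, and 836 (9.30%) were lower. Hat1, a histone acetyltransferase, was at 201 CPM in the S-leaning range and 61.1 CPM in the mitosis-leaning range. Rif1, which controls replication timing, was at 73.1 and 20.8 CPM in the same order. Reep4, which clears membrane from mitotic chromosomes, was at 29.6 CPM in the S-leaning range and 110 CPM in the mitosis-leaning range. Apparent differences can rest on 1 cell: 221 of the 227 Retnla UMIs of the whole cluster, and 252 of the 362 Cxcl2 UMIs, came from a single cell each.

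Promoter sequences are shown for the 2 genes with the highest pooled ratio in the mitotic lists and in the S phase lists, among genes at 50 CPM or more with a single promoter entry. Each runs from 250 bases before to 50 bases after the start of the gene on the RefSeq annotation of GRCm38.p6. Capitals mark 3 motifs, searched on both strands: the CCAAT box CCAAT, the CHR element TTTGAA bound by the MuvB complex, and an E2F site (TTTGGCGC, TTTCCCGC, TTTCGCGC or TTTGCCGC). The letters of the 3 motifs do not overlap in the sequences shown.
Plk1, chr7:122159185-122159484, plus strand: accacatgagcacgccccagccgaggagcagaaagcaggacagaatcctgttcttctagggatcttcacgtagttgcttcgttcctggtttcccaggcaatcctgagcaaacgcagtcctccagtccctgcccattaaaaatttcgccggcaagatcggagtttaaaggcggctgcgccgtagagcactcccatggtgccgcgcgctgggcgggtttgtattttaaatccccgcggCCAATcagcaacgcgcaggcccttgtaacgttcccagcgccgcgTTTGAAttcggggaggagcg
Nusap1, chr2:119618048-119618347, plus strand: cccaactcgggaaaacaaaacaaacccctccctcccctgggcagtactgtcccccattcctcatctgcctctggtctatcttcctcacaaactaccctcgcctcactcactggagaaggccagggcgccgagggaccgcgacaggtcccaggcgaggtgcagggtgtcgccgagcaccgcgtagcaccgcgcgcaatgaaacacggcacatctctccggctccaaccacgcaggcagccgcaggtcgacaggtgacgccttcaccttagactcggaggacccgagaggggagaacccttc
Pclaf, chr9:65890073-65890372, plus strand: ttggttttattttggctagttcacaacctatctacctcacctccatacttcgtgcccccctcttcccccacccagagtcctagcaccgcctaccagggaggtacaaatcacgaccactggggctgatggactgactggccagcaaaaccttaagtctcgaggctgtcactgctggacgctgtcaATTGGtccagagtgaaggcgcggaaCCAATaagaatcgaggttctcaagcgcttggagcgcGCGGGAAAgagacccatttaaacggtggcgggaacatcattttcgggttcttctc
Asf1b, chr8:83955444-83955743, plus strand: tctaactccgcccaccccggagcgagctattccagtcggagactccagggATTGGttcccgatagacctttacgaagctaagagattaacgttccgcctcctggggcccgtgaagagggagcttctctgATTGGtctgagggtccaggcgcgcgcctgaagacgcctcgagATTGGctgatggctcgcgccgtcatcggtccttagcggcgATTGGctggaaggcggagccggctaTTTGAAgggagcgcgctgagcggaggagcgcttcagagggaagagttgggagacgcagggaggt
The Plk1 window holds 1 CCAAT box and 1 CHR element, which begins 31 bases into the gene, and the Nusap1 window holds none of the 3 motifs. The Pclaf window holds 2 CCAAT boxes and 1 E2F site, and the Asf1b window holds 4 CCAAT boxes and 1 CHR element. Over the 126 promoters found for 111 of the 138 mitotic genes, 50.8% held the CHR letters, against 15.8% of the 76 S phase promoters 17.9% of all 32851 mouse promoters of that length and 12.6% of the 12613 promoters found for genes of the B16 table. The E2F letters were in 10.3% of mitotic promoters, against 26.3% of S phase promoters, 2.26% of all promoters and 3.86% of those of genes of the B16 table. CCAAT was in 65.9% of mitotic promoters, against 56.6% of S phase promoters, 37.4% of all promoters and 37.9% of those of genes of the B16 table. A match is a string of letters and no measured binding.

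Outside the cell cycle lists, Mac-Prolif was closer to Mac-1 than to Mac-2 or Immature Mac in the number of genes past 1.5-fold. Of 11312 measured genes, 1350 (11.9%) were higher than in the pooled clusters and 1191 (10.5%) were lower, with a median log2 ratio of 0.09. Without the 25 cells named Prolif CD8 T cells, 1230 were higher and 1451 lower. The counts differed with the cluster chosen for comparison. Against Mac-1 alone, 838 genes (7.80%) were higher and 648 (6.03%) lower. Against Mac-2 alone, 3037 (30.1%) were higher and 1144 (11.4%) lower. Against Immature Mac alone, 2554 (24.2%) were higher and 1408 (13.3%) lower. Over all 3 clusters in turn, 548 genes (4.84%) were higher and 297 (2.63%) lower against each.

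The 12 highest of these other genes were chosen by the interval bound nearest to 1 over the 3 clusters, at 50 CPM or more. Reep4 was at 65.8 CPM in Mac-Prolif, against 17.7 in Mac-1, 12.3 in Mac-2 and 15.4 in Immature Mac, a pooled ratio of 4.11 (3.59 to 4.71). Tmpo, a lamina-associated protein, was at 265 CPM in Mac-Prolif, against 87.3, 64.1 and 69.1 CPM. Rangap1, which activates the GTPase Ran, was at 124 CPM in Mac-Prolif, against 44.6, 23.4 and 27.0 CPM. Nrm, of the inner nuclear membrane, and Nde1, a dynein regulator at the kinetochore, were 2.87-fold and 3.22-fold higher than the pool. Nucks1, a chromatin protein, was at 366 CPM in Mac-Prolif and 127 CPM in the pooled clusters. Sae1, of the enzyme that activates SUMO, was at 117 and 41.2 CPM in the same order. Selenoh, Cmc2 and Ubald2 were 2.88-fold, 3.38-fold and 2.26-fold higher. Lsm2, an RNA-binding protein of splicing and decay, was at 175 CPM in Mac-Prolif and 54.8 CPM in the pooled clusters.

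Lipg, endothelial lipase, was found in few cells. It was at 50.1 CPM in Mac-Prolif, against 17.9, 9.12 and 1.66 CPM, but its 354 UMIs lay in 22 of the 322 cells, and 79 of them in 1 cell.

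Of the lists outside the cell cycle, splicing was the one with the most genes higher. Its 28 measured genes held 15 that were higher and 0 that were lower, where 11.9% of all other genes were higher and 10.5% lower. Its median log2 ratio was 0.62 against 0.09 over all other genes. Over Mac-1 the median was 0.42, with 5 of 28 higher. Alyref, which exports mRNA from the nucleus, was at 194 CPM in Mac-Prolif and 91.5 CPM in the pooled clusters, and Lsm3 at 149 and 73.5 CPM. The splicing factor Sf3b1 was at 287 CPM in Mac-Prolif and 246 CPM in the pooled clusters. Of 26 ribosome biogenesis genes, 2 were higher, which were Nop58 at 1.60-fold and Nop56 at 1.58-fold. None of 29 nuclear oxidative phosphorylation genes, 22 chaperone genes or 22 proteasome genes passed 1.5-fold in either direction. Their medians were 0.21, 0.18 and 0.19. Cycs, which encodes cytochrome c, was at 348 CPM in Mac-Prolif and 256 CPM in the pooled clusters. Of 17 cholesterol synthesis genes, 1 was higher, which was Mvk at 1.54-fold, and the median log2 ratio was -0.14.

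Several lists of macrophage function had a negative median log2 ratio. Over all 11312 genes outside the cell cycle lists, 10.5% were lower and 11.9% higher. The list counts here and in the paragraphs below stand beside those shares. Of 11 measured genes of MHC class II presentation, 6 were lower and 0 higher, with a median log2 ratio of -0.73. H2-Ab1, a class II beta chain, was at 2098 CPM in Mac-Prolif, against 3371 in Mac-1, 1957 in Mac-2 and 4506 in Immature Mac. Ciita, the master activator of class II genes, was at 33.1 CPM in Mac-Prolif, against 52.5, 20.7 and 81.2 CPM. The list was lower over Mac-1 (-0.65) and Immature Mac (-1.07) and near even over Mac-2 (0.15), so the direction depended on the cluster. Counted per cell, its median was 0.07. Class I presentation was near even, with 0 of 13 genes past 1.5-fold and a median of 0.01.

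Mmp13, a collagenase, was at 19.0 CPM in Mac-Prolif, against 57.2 in Mac-1, 237 in Mac-2 and 116 in Immature Mac. Mmp12, macrophage elastase, was at 38.5 CPM in Mac-Prolif, against 85.6, 918 and 419 CPM. Fabp5, a fatty acid carrier, was at 600.5 CPM in Mac-Prolif, against 1294, 2235 and 1742 CPM. Each was lower than in all 3 clusters. Of 16 lipid-handling genes 7 were lower, 0 were higher and 9 did not pass 1.5-fold, with a median log2 ratio of -0.46. Gpnmb of the lysosome membrane was at 15.4 CPM in Mac-Prolif and 103 CPM in the pooled clusters. Of 22 lysosome genes 4 were lower and 0 higher, with a median of -0.21, where 10.5% of all other genes were lower. Ctsl, a cathepsin, was at 277 CPM in Mac-Prolif, against 464, 636 and 931 CPM. Pla2g7, a secreted phospholipase, was at 70.4 CPM in Mac-Prolif, against 154, 173 and 327 CPM.

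Secreted and suppressive factors were low as well. Spp1, osteopontin, was at 149 CPM in Mac-Prolif, against 334, 330 and 2485 CPM. Arg1, which breaks down arginine, was at 116 CPM in Mac-Prolif, against 196, 216 and 1416 CPM. Cd14, the co-receptor for endotoxin, was at 28.03 CPM in Mac-Prolif, against 58.2, 145 and 440.1 CPM. The chemokine Ccl6 was at 236 CPM in Mac-Prolif, against 413, 398 and 1479 CPM. Zfp36l1, Ninj1 and Vat1 were the other 3 of the 12 lowest, at 0.47, 0.36 and 0.48 of the pooled level. Of 17 suppressive macrophage genes 10 were lower and 1 higher, with a median of -0.79 in all and -0.15 over Mac-1. The 1 higher gene was Retnla, with a pooled ratio of 13.4 that becomes 0.35 without the single cell that held 221 of its 227 UMIs.

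Several lists were far lower over Immature Mac than over Mac-1. Of 16 classical monocyte genes 14 were lower, with a median of -1.9997, but it was -0.29 over Mac-1 and -3.18 over Immature Mac. Chil3 was at 2.83 CPM in Mac-Prolif, against 5.13, 8.14 and 221 CPM. Of 20 inflammatory cytokine and chemokine genes 12 were lower, with a median of -1.21 in all and -0.07 over Mac-1. Cxcl3 was at 2.97 CPM in Mac-Prolif, against 2.95, 3.45 and 330.1 CPM. Of 25 interferon response genes 12 were lower, with a median of -0.54 in all and 0.11 over Mac-1. Rsad2, an antiviral enzyme, was at 38.5 CPM in Mac-Prolif, against 30.9, 779 and 486 CPM. It was thus slightly above Mac-1, but 44 of its 272 Mac-Prolif UMIs came from 1 cell.

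Genes of tissue handling and oxygen supply behaved alike in this respect. Of 20 dissociation stress genes 14 were lower, with a median of -0.84 in all and 0.03 over Mac-1. Klf4 was at 12.7 CPM in Mac-Prolif, against 7.32, 42.9 and 77.6 CPM. Of 23 hypoxia and glycolysis genes 10 were lower, with a median of -0.40 in all and 0.12 over Mac-1. Vegfa, the vascular growth factor, was at 35.4 CPM in Mac-Prolif, against 20.8, 189 and 163 CPM, so it too stood above Mac-1.

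Of 21 complement and resident-like genes 4 were lower and 1 higher, where 10.5% of all other genes were lower and 11.9% higher. Their median log2 ratio was -0.24 in all, -0.26 over Mac-1, 0.18 over Mac-2 and 0.07 over Immature Mac. C1qc was at 3662 CPM in Mac-Prolif and 2734 CPM in the pooled clusters, and F13a1, a clotting factor subunit, at 36.4 and 129 CPM. The 1 higher gene was Cd163, whose 7 UMIs all lay in 1 cell. Of 23 growth factor receptor and signalling genes 6 were lower and 0 higher, with a median of -0.26. Csf2rb2, a cytokine receptor chain, was at 14.9 CPM in Mac-Prolif and 40.1 CPM in the pooled clusters, and the oncogene Myc at 27.0 and 23.2 CPM. Of 16 checkpoint and costimulatory ligands 6 were lower, among them Pdcd1lg2, a ligand of PD-1, at 5.38 CPM in Mac-Prolif and 14.4 CPM in the pooled clusters.

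**Figure D4:**
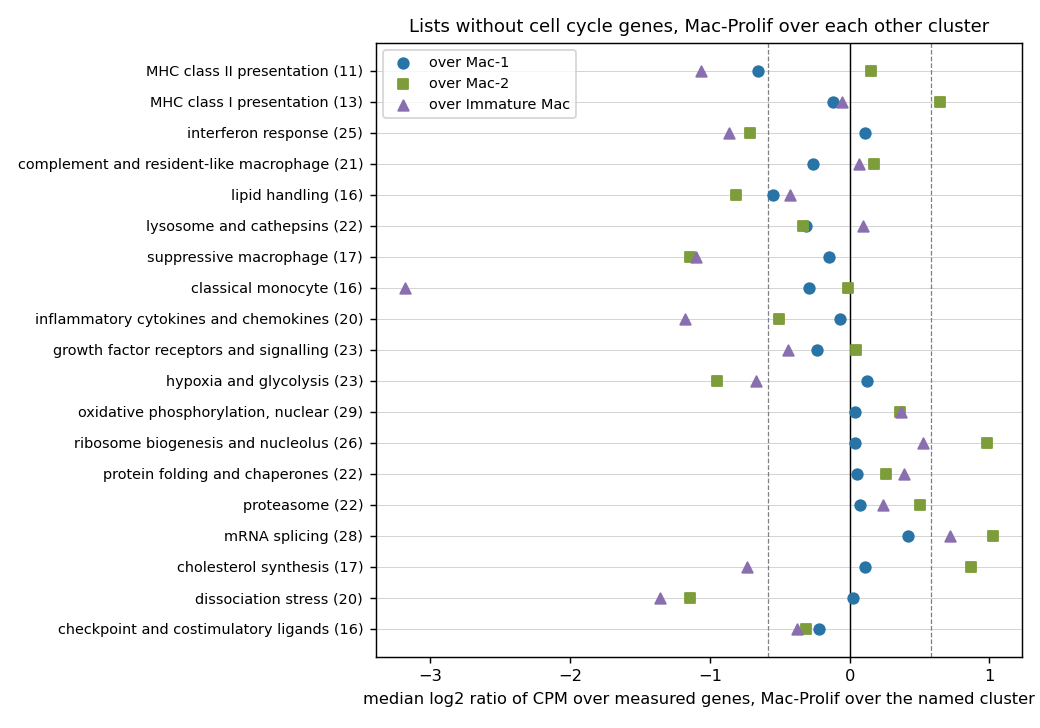
Median log2 ratio of CPM over the measured genes of each list outside the cell cycle (number in brackets), for Mac-Prolif over Mac-1, over Mac-2 and over Immature Mac. Dashed lines mark 1.5-fold in either direction: over Mac-1 only MHC class II presentation (-0.65) lies outside them, while over Immature Mac classical monocyte genes lie at -3.18.

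Each Mac-Prolif cell was then assigned to the cluster whose summed profile, without the cell cycle lists, gave its counts the highest likelihood. Mac-1 was nearest for 282 of 322 cells (87.6%, exact interval 83.5 to 91.0), Mac-2 for 34 and Immature Mac for 6. Held-out cells of the 3 clusters were assigned to their own cluster in 90.5% of Mac-1, 87.7% of Mac-2 and 82.8% of Immature Mac cells. Across the ranges, Mac-1 was nearest for 95 of 107 cells in the mitosis-leaning range, 93 of 108 in the middle range and 94 of 107 in the S-leaning range. Across 11312 genes the summed profile of Mac-Prolif had a Spearman correlation of 0.98 with Mac-1, 0.94 with Mac-2 and 0.93 with Immature Mac. Those values are across genes of 1 library, and genes are not independent replicates. Mac-1 was also the deepest of the 3 clusters. For the assignment, a setting with equal depth per cell is given below, and the part of depth in the correlations was not tested. Genes outside the lists that differed between the ranges, such as Reep4 and Hat1, stayed in the profiles. Mac-1 also held 122 cells at or above the 5th percentile of Mac-Prolif in cell cycle UMIs, against 6 in Mac-2 and 7 in Immature Mac. What these genes and cells add to the likeness to Mac-1 was not tested. After thinning to 2000 UMIs, Mac-1 was nearest for 288 of 322 cells. In the authors' joint annotation 288 of the Mac-Prolif cells carried the name TAM-3, as did 671 of 724 Mac-1 cells and 290 of 350 Mac-2 cells, against 35 of 900 Immature Mac cells.

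The same contrast was computed for dividing macrophages of LLC and for dividing CD8 T cells of B16, and the values are set side by side. The LLC contrast compared 331 Prolif TAM cells with 7865 cells of non-dividing LLC macrophage clusters, and the tumour and the mouse genotype differ from B16. The CD8 contrast compared 527 CD8 T cells-Prolif with 594 CD8 T cells of B16. Of the measured cell cycle genes, 285 of 303 (94.1%) were higher in LLC and 290 of 309 (93.9%) in CD8 T cells. Lower were 2 (0.66%) in LLC and 0 in CD8 T cells. Of the other genes, 1623 of 10683 (15.2%) were higher and 1207 (11.3%) lower in LLC. In CD8 T cells 1221 of 10101 (12.1%) were higher and 926 (9.17%) lower.

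Median log2 ratios of mitotic lists were larger in LLC, at 4.41 for centromere and 5.07 for spindle genes, against 3.23 and 4.001 in Mac-Prolif. The reference cells differ in make-up. The largest reference cluster was Imm TAM-4 (2675 cells) in LLC and Immature Mac (900 cells) in B16. Mac-1, in the B16 reference, held 122 cells at or above the 5th percentile of Mac-Prolif in cell cycle UMIs. The part of these differences in the ratios was not tested. Ccnb2 had a ratio of 6.04 in Mac-Prolif, 41.2 in LLC (159 CPM in Prolif TAM, against 3.87 CPM) and 7.15 in CD8 T cells. Cenpf had ratios of 43.5, 93.9 and 39.2 in the same order. Mcm6 had ratios of 1.52, 2.65 and 1.80, and its LLC ratio was 4.42 over the 2 largest LLC clusters alone. In level, Cenpf stood at 193 CPM in Mac-Prolif, 275 CPM in LLC Prolif TAM and 228 CPM in dividing CD8 T cells.

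Genes outside the cell cycle lists that were higher in Mac-Prolif were partly higher in the other dividing cells. Of those measured in both, 791 genes were higher in both Mac-Prolif and LLC, which is 68.1% of the Mac-Prolif genes and 48.7% of the LLC genes, where 15.2% of all other genes were higher in LLC. A further 49 of the Mac-Prolif genes were lower in LLC. With CD8 T cells 583 were shared, 48.1% of the Mac-Prolif genes and 47.7% of the CD8 genes, where 12.1% of all other genes were higher in CD8 T cells, and 69 went the opposite way. Lower genes shared were 609 with LLC (57.1% and 50.5%), with 39 the opposite way, and 226 with CD8 T cells (29.3% and 24.4%), with 82 the opposite way. Of all other genes, 11.3% were lower in LLC and 9.17% in CD8 T cells. Among the 12 highest other genes, Reep4 had ratios of 4.11 in Mac-Prolif, 4.22 in LLC and 4.33 in CD8 T cells. Tmpo had ratios of 3.44, 3.52 and 3.11. Lipg was nearly absent from LLC, at 0.181 CPM in Prolif TAM and 0.837 CPM in the other LLC macrophages.

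Among the lowest, Mmp12 had ratios of 0.11 in Mac-Prolif, 0.33 in LLC and 0.35 in CD8 T cells, where it was at 2.30 CPM in dividing and 6.62 CPM in other cells. Arg1 had ratios of 0.18 in Mac-Prolif and 0.33 in LLC. Fabp5 was 0.37 in Mac-Prolif and 0.73 in LLC, and 2.15 in CD8 T cells. Splicing genes had medians of 0.62, 0.65 and 0.70 in Mac-Prolif, LLC and CD8 T cells. MHC class II presentation had medians of -0.73, -0.57 and -0.29. Interferon response genes had medians of -0.54, -1.14 and -0.15. Over the 2 largest LLC clusters alone, the LLC interferon median was -0.10, with 5 of 25 genes higher and 5 lower. Ribosome biogenesis genes had medians of 0.25, 0.44 and 0.60. Cdkn1a had ratios of 0.42 in Mac-Prolif, 0.57 in LLC and 1.001 in CD8 T cells.

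**Figure D5:**
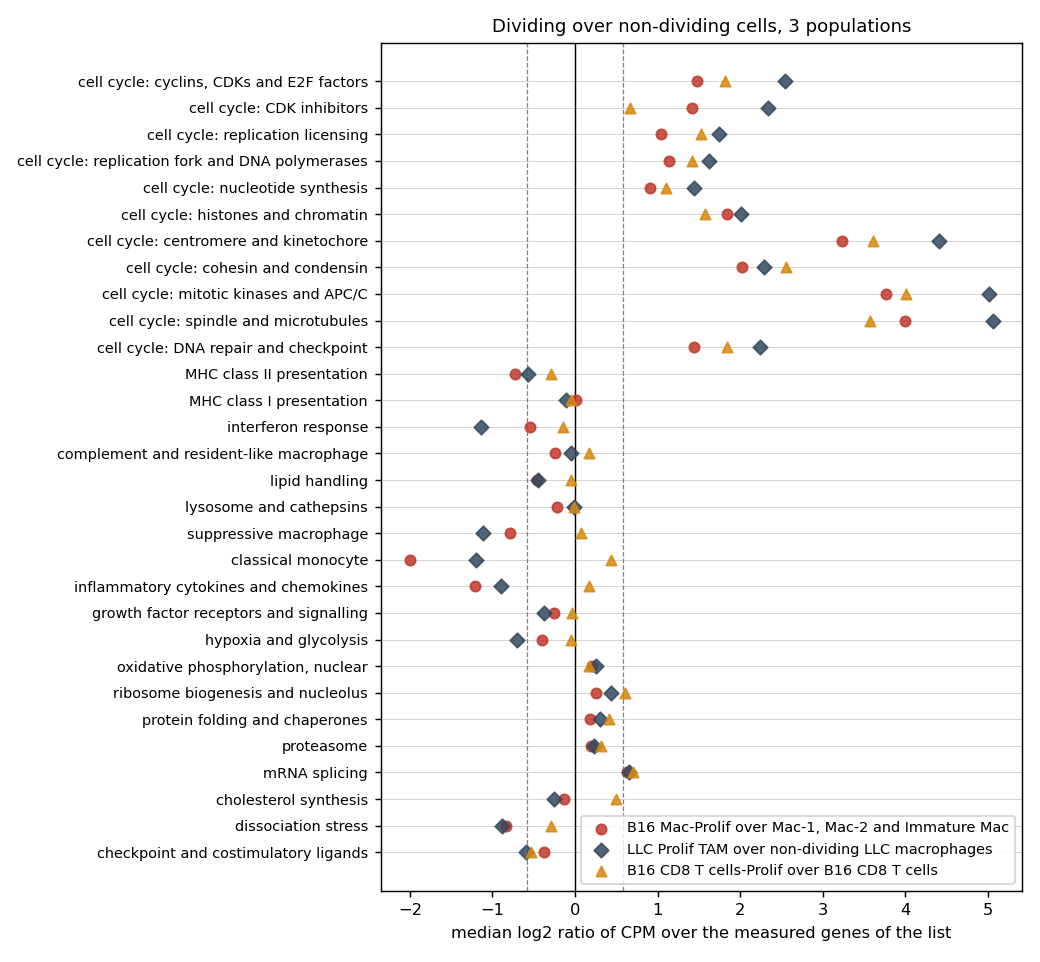
Median log2 ratio of CPM over the measured genes of each list in 3 contrasts of dividing over non-dividing cells, for B16 Mac-Prolif, LLC Prolif TAM and B16 dividing CD8 T cells. Dashed lines mark 1.5-fold: splicing genes lie together at 0.62 to 0.70, and classical monocyte genes lie at -1.9997 in Mac-Prolif and 0.44 in CD8 T cells.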

How the data were processed

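Single-cell RNA libraries of mouse tumours were analysed from deposited UMI count tables, with the authors' deposited cell names. Per the submitters' processing notes, Cell Ranger and the mm10 build were used; for their versions, and for cell filters, doublet removal and clustering, the sources used here give nothing. The members and gene lists were chosen with earlier results of these data known.

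Counts were summed per cluster and scaled to CPM. The 95% interval of a ratio is the exact binomial one, conditional on the UMIs of both sides, and that of a share is Clopper-Pearson. A gene needed 20 UMIs over both sides, and 1.5-fold was called. Named were the 15 highest cell cycle genes, and the 12 highest and 12 lowest other genes, by the interval bound nearest to 1 over the 3 clusters, at 50 CPM or more. Also named were cyclins, CDK inhibitors, MCM genes, cell type markers and up to 3 highest and 3 lowest genes per list. Mitochondrial, ribosomal protein, predicted, immunoglobulin, T cell receptor, haemoglobin and sex-linked marker genes were left out of the rule. Genes traced through the Mac-1 cells and the 3 ranges were chosen after their values were seen. Doublets were scored by nearest neighbours among simulated cell pairs and were kept. The ratio calculation was tested on simulated data. Python 3.11.15, numpy 2.4.6, scipy 1.17.1, pandas 2.3.3, scikit-learn 1.9.0 and matplotlib 3.10.9 were used. Each cluster has 1 library, so there are no replicates. Some items are not reported here.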

Additional observations from a re-analysis of the deposited data

Results flagged for a closer look

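Retnla, a secreted factor of alternatively activated macrophages, had a ratio above 1 in B16 and below 1 in LLC, and the B16 direction rests on 1 cell. Its ratio was 13.4 in Mac-Prolif over the pooled B16 clusters and 0.247 (exact 95% interval 0.0666 to 0.642) in LLC Prolif TAM over the other LLC macrophages. In LLC it was at 0.725 CPM in Prolif TAM and 2.94 CPM in the others. In B16, 221 of the 227 Retnla UMIs of Mac-Prolif came from 1 cell, and the ratio without it was 0.354, the same direction as in LLC. Over the 2 largest LLC clusters alone, the LLC ratio was 0.461 (0.122 to 1.24), an interval that includes 1. The difference between the tumours was not tested.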

How the results depend on the processing

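The number of lower cell cycle genes was 1 in the main setting. It was 2 with median-of-ratios scaling, averaging CPM over cells, thinning to 5000 UMIs and each of Mac-1, Mac-2 or Immature Mac alone. It was also 2 without the 25 cells named Prolif CD8 T cells and without reference cells in the Mac-Prolif range. The number was 3 after thinning to 2000 UMIs and without the top 6% of doublet scores, and 0 as UMIs per cell. Over Mac-1 the 2 were DNA repair and checkpoint genes, and Cdkn1a was not among them. Other genes higher numbered 8577 as UMIs per cell, 445 at 2-fold, 838 over Mac-1, 3037 over Mac-2 and 2554 over Immature Mac. Other genes lower numbered 358 as UMIs per cell, 729 at 100 UMIs or more, 593 at 2-fold and 648 over Mac-1. Of other genes called, 53.1% were higher, against 41.1% with median-of-ratios scaling, 96.0% as UMIs per cell, 42.9% at 2-fold, 72.6% over Mac-2 and 64.5% over Immature Mac. Mac-Prolif was 11.1% of monocytes and macrophages and 14.0% of the 4 clusters. Its UMIs per cell were 1.30 times those of Mac-1. LLC had 1 lower cell cycle gene against its 2 largest clusters.

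Some directions turned, and the cause was not tested. Over Mac-1 the median log2 ratio was 0.0262 for dissociation stress, and ratios were 0.912 for Mcm6, 1.25 for Cdkn1a, 3.44 for Cxcl2, 1.01 for Cxcl3, 1.25 for Rsad2, 1.74 for Klf4, 1.70 for Vegfa and 0.841 for Cd163. With the clusters weighted by nearest cluster they were 0.998 for Mcm6, 1.80 for Cxcl2, 1.03 for Klf4 and 0.960 for Cd163. Over Mac-2 MHC class II presentation was at 0.15, and ratios were 1.07 for H2-Ab1 and 1.60 for Ciita. As UMIs per cell, MHC class II presentation was at 0.0668, suppressive genes at 0.0021 and H2-Ab1 at 1.02. Retnla was at 0.339 without the top doublet scores. For Cxcl2 252 of 362 Mac-Prolif UMIs, and for Cd163 7 of 7, came from 1 cell each, and without that cell the pooled ratios were 0.0755 and 0. For Rsad2 44 of 272 came from 1 cell, and its ratio over Mac-1 without that cell was not computed. Settings without the 25 cells or the high reference cells, and UMIs per cell over Mac-1, were chosen after seeing the data. No paired analysis was possible because each cluster comes from 1 library. With 1 pooled library, the spread between tumours is unknown, and counting error alone sets the intervals.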
